A study of Mus musculus with 3 samples.

Results

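The insulin-like growth factor (IGF) axis was followed across the 3 libraries through 10 genes chosen by name: the ligand genes Igf1 and Igf2, the receptor genes Igf1r, Insr and Igf2r, the binding protein genes Igfbp2, Igfbp3, Igfbp4 and Igfbp5, and Igf2bp1. All 10 had a row among the 16977 genes of the deposited table, and none was absent. The set was put forward because Igf2 and Igf2r were both higher after PHF2 was lowered. Its values in that comparison are therefore given as a description, without a test. Ribosomal RNA-depleted total RNA came from neural stem cells of C57BL/6J mouse embryos of stage E12.5, grown with EGF at 20 ng/ml and FGF at 10 ng/ml. There were 2 libraries of cells that had received a lentivirus with a hairpin against PHF2 (shPHF2 replicates 1 and 2) and 1 library of cells with a control hairpin (shControl). All 3 cultures had thus been infected, and they shared the N2 and B27 supplements, which contain insulin. The labels do not say how many hairpins against PHF2 were used, or whether the cultures came from separate embryos, so the spread between the shPHF2 libraries may be partly technical. PHF2 belongs to a family of histone demethylases that act on methylated lysine 9 of histone H3.

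IGF1 and IGF2 are secreted growth factors that signal through the IGF1 receptor, a tyrosine kinase, and, for IGF2, also through the insulin receptor. The IGF2 receptor carries lysosomal enzymes tagged with mannose 6-phosphate and takes up IGF2 for breakdown, without a kinase of its own. The binding proteins hold the ligands outside the cell, which can limit or prolong their action. In the developing mouse brain the axis drives growth of progenitors. Igf2 and Igf2r are imprinted in opposite ways in most mouse tissues, Igf2 being expressed mainly from the paternal allele and Igf2r from the maternal one. Which alleles were expressed in these cultures was not tested.

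The libraries held 37171026 gene reads in shPHF2 replicate 1, 26302177 in shPHF2 replicate 2 and 32898139 in shControl. Values below are normalised reads: a gene's reads in a library over that library's size factor. Phf2 had 985 and 714 normalised reads in the shPHF2 libraries against 2593 in shControl, a log2 difference of -1.63. All 9 radial glia and neural stem markers on a fixed list were detected: Nes, the gene for the intermediate filament nestin, had 101381 and 98053 normalised reads in the shPHF2 libraries and 118161 in shControl, while the Notch target Hes5 had at most 39.9. Sox2 rose, with a log2 difference of 0.68 (limma, adjusted p = 0.048), and the other 8 of 9 such markers did not pass the test. The list was split in direction. Both shPHF2 libraries lay above shControl for Sox2, Vim, Prom1 and Slc1a3, and below it for Sox1, Nes, Pax6 and Hes5. Those of Fabp7 lay on either side. The neuron list was uneven, since Stmn2 had no row and Snap25 had at most 36.9 normalised reads, while Map2 had 37935 and 38518 in shPHF2 and 60020 in shControl. The neuron list had 0 members past the test. Its summed value, 38282 and 39009 in shPHF2 and 60341 in shControl, is nearly all Map2, and Tubb3 lay the other way, at 198 and 346 in shPHF2 and 104 in shControl (limma, adjusted p = 0.070). Rbfox3 and Snap25 lay below shControl in both shPHF2 libraries, as Map2 did, and Dcx lay on either side of it. The oligodendrocyte list also had 0 members past the test. Its summed value, 368 and 257 in shPHF2 and 680 in shControl, is mostly Pdgfra. Mbp, which had too few reads to be tested, had 3.33 and 16.9 normalised reads in shPHF2 and 2.99 in shControl.

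The genes lie on 6 chromosomes (GENCODE M21 on GRCm38, the build mm10). Igf2 spans 142650766 to 142666816 on the minus strand of chromosome 7, and Igf1r spans 67952827 to 68233668 on the plus strand of the same chromosome. Igf2r spans 12682406 to 12769664 on the minus strand of chromosome 17, Insr 3122061 to 3279617 on the minus strand of chromosome 8, and Igf1 87858265 to 87937042 on the plus strand of chromosome 10. Igfbp2 (72824503 to 72852474, plus strand) and Igfbp5 (72857932 to 72874884, minus strand) are neighbours on chromosome 1, with 5457 bases between their ends. Igfbp3 (7206086 to 7213923, minus strand), Igfbp4 (99041244 to 99054392, plus strand) and Igf2bp1 (95957163 to 96005940, minus strand) all lie on chromosome 11. The values count reads over each gene's exons as a whole and do not separate its transcripts.

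The starts of 8 of the 10 genes were matched in RefSeq (GRCm38.p6), as 12 promoter windows that run from 250 bases before a transcription start to 50 bases after it. Igf2 has 4 such windows and Igfbp2 has 2, numbered here from the most upstream start. Windows of the genes with the largest shPHF2 differences, apart from Igf1 with its few reads, are shown so that their unlike base composition can be read directly. For Igf2, itself low in reads, these are the 2 of its 4 windows that hold a GC box. Igfbp3, whose shPHF2 values lie on both sides of shControl, is shown as a counterpart. Capitals mark GC boxes (GGGCGG or its reverse complement CCGCCC, the letters bound by SP1-type factors) and TATA boxes (TATAAA or TTTATA).
Igf2r, chr17:12769657-12769956, minus strand: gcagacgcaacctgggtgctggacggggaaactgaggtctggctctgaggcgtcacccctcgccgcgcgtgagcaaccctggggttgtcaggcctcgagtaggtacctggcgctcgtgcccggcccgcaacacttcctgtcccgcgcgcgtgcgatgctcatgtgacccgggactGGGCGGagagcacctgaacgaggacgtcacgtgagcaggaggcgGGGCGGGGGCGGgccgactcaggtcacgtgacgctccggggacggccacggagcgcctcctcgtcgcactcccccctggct
Igf1r, chr7:67952007-67952306, plus strand: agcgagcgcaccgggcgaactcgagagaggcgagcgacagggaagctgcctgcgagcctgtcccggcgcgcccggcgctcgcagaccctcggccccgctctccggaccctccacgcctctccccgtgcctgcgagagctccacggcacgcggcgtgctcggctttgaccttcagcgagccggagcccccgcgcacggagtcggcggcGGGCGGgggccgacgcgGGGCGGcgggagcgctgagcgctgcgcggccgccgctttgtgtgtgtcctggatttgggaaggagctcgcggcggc
Igf2 start 4, chr7:142657447-142657746, minus strand: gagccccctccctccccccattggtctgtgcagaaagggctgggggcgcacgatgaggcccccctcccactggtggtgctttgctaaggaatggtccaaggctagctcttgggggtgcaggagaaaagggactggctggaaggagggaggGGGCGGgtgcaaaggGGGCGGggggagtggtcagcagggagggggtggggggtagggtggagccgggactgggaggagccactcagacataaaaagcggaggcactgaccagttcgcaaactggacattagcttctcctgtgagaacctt
Igf2 start 3, chr7:142658755-142659054, minus strand: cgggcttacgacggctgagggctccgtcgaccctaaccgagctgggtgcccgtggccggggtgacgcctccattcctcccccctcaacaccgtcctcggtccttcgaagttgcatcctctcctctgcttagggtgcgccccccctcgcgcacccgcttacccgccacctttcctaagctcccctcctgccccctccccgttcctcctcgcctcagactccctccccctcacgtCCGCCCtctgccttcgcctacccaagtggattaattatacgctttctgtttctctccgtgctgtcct
Igfbp4, chr11:99040994-99041293, plus strand: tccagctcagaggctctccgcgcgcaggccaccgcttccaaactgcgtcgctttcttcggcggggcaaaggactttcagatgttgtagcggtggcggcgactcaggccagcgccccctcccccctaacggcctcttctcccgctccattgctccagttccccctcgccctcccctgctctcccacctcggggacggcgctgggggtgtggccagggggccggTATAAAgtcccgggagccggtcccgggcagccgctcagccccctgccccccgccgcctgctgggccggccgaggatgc
Igfbp3, chr11:7213874-7214173, minus strand: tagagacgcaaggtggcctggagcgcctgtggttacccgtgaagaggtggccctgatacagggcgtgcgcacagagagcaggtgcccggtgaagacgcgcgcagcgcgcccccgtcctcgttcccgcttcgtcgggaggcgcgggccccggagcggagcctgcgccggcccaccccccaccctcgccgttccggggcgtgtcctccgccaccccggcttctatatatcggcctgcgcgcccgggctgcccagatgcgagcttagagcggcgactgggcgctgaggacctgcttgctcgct
The Igf2r window holds 3 GC boxes, of which the last 2 adjoin each other at 31 and 25 bases before the start. The Igf1r window holds 2 GC boxes and 48 CpG dinucleotides, and that CpG count lies at percentile 98.9 of all 32841 windows. Igf2 start 4 also holds 2 GC boxes but 7 CpG, which is the median of all windows, while Igf2 start 3 has 1 GC box and 24 CpG. Igf2 starts 1 and 2, which are not printed, hold no GC box and have 2 and 14 CpG. Igfbp4 has the set's single match to TATAAA or TTTATA, whose first base lies 28 bases before the start. Looser forms of the TATA box were not searched. Over the 12 windows, 5 hold a GC box, against 35.7% of all windows, and the TATA letters occur in 13.6% of all windows. None of the 12 holds TTTGGCGC or TTTCCCGC, letters of E2F-type sites in either orientation, which occur in 0.515% and 1.07% of all windows. CACGTG, the E-box, occurs in 2 of the 12 windows, those of Igf2r and Igfbp2 start 1, against 7.15% of all windows. A match of letters is a description and not evidence of a bound site.

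**Figure D1:**
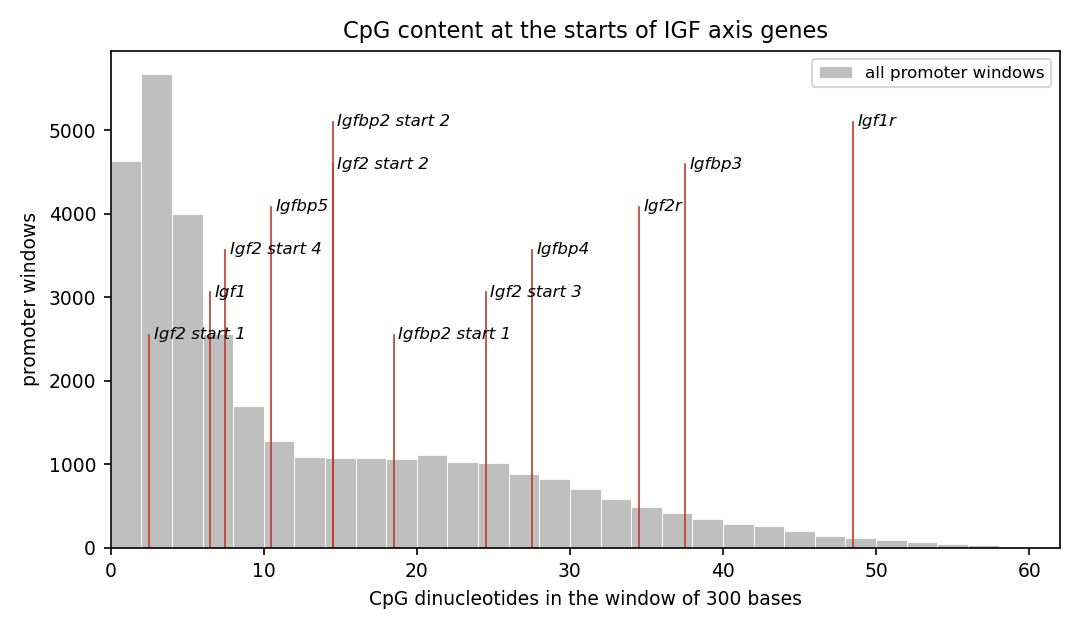
Number of CpG dinucleotides in the promoter windows of 300 bases (x axis) for all 32841 RefSeq windows (grey bars, y axis: number of windows) and for the 12 windows of the IGF axis genes (red lines, whose heights only separate the names). The Igf2 windows range from 2 to 24 CpG, Igfbp3, Igf2r and Igf1r hold 37, 34 and 48, and the median of all windows is 7.

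Levels can be compared between genes only per length, here as RPKM, the reads per kilobase of annotated exon scaled to the library's total of gene reads. On that scale the 10 genes kept the same order in all 3 libraries. Igfbp2 was first, with RPKM levels of 699 and 946 in the shPHF2 libraries and 572 in shControl, followed by Igfbp3 and Igfbp4. The receptors came next: the Igf2r level was 54.4 and 36.4 in shPHF2 and 16.3 in shControl, and the Igf1r level was 28.1 and 23.0 in shPHF2 and 14.8 in shControl. Igfbp5 and Insr followed, and their levels overlapped within shPHF2, at 15.4 ± 2.25 for Igfbp5 and 13.4 ± 1.80 for Insr (SD, n = 2). The ligands were far lower. The Igf2 level was 1.32 and 1.69 in shPHF2 and 0.366 in shControl, and the Igf1 level was 0.122 and 0.0614 in shPHF2 and 0.0276 in shControl. Igf2bp1 was last, at 0.00556 and 0.0550 in shPHF2 and 0.0188 in shControl. These cultures thus held abundant transcripts of binding proteins and receptors beside few transcripts of the ligands. By per-length level, Igfbp2 lay at percentile 99.8 to 99.9 of the 15832 genes with a length in every library, and Igf2 lay at percentile 33.5 and 36.4 in shPHF2 and 25.0 in shControl.

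**Figure D2:**
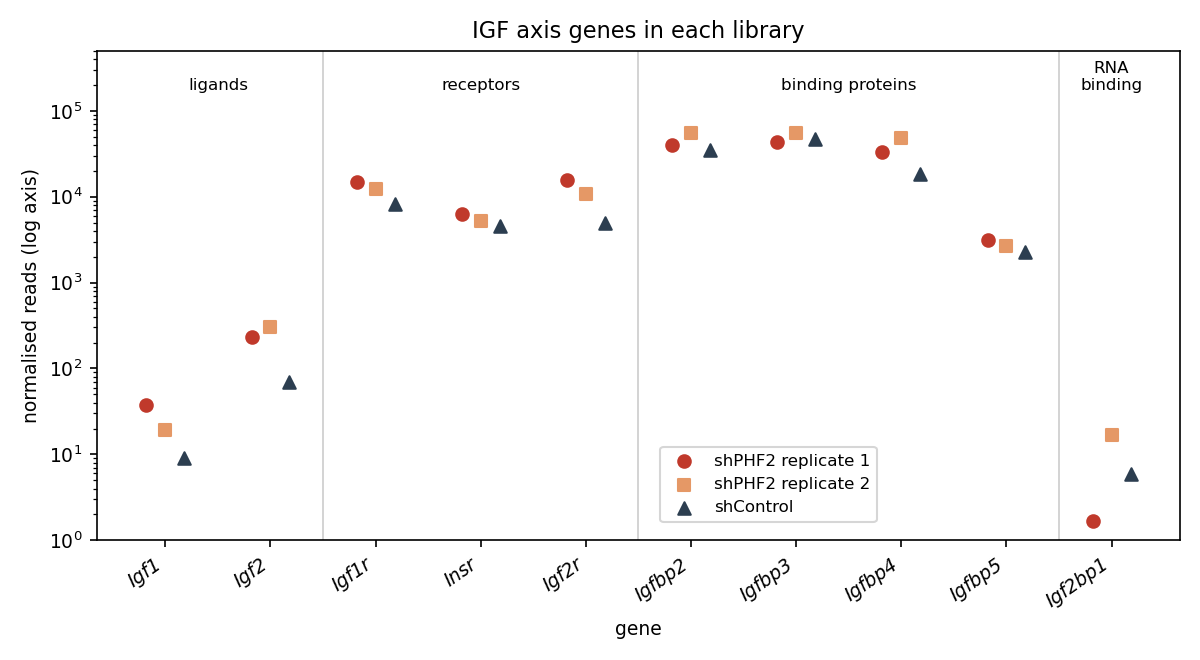
Normalised reads (log axis) of the 10 IGF axis genes in each library, grouped by role, with shPHF2 replicate 1 as red circles, shPHF2 replicate 2 as orange squares and the single shControl library as dark triangles. Both shPHF2 libraries lie above shControl for 8 genes, and the points of Igfbp3 and Igf2bp1 lie on either side of it.

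Of the 10 genes, 9 had a mean of at least 10 normalised reads over the libraries, the minimum for the test across all genes, and Igf2bp1 did not. Both shPHF2 libraries lay above shControl for 8 of these 9, which was so for 41.4% of the 14148 genes tested. In no member did both lie below, against 41.8% of genes tested. The median log2 difference of the 9 was 0.72, and that of all genes tested was -0.01. Since the set was chosen from this comparison, these shares describe the choice and carry no further weight. In bulk RNA, more cells that express a gene and more RNA per cell cannot be told apart.

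Igf2, the ligand gene of fetal growth, was low but detected in every library. It had 234 normalised reads in shPHF2 replicate 1 and 307 in replicate 2, against 68.8 in shControl. The shPHF2 libraries lay above shControl without overlap, and their mean of 271 ± 51.7 (SD, n = 2) was 3.94-fold the shControl value. The log2 difference, taken on log2(normalised reads + 1) as are all log2 differences here, was 1.75 in replicate 1 and 2.14 in replicate 2. In raw reads there were 281 and 255 in shPHF2 and 69 in shControl, a ratio of 3.84 with the shPHF2 reads pooled and scaled. The authors' deposited table gives Igf2 a log2 fold change of 1.98.

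Igf1, the ligand gene that mainly serves postnatal growth, was close to undetected. It had 37.5 and 19.3 normalised reads in the shPHF2 libraries, against 8.97 in shControl. Both shPHF2 values were above shControl, but replicate 2 lay 0.92 below replicate 1 on the log2 scale. These rest on 45, 16 and 9 reads in shPHF2 replicate 1, shPHF2 replicate 2 and shControl. The ratio, with the shPHF2 reads pooled, was 3.35. Its 95% exact interval of 1.65 to 7.68 gives the width of counting error only and is not a test. Microglia and macrophages are a known source of Igf1. Csf1r, one of their markers, had 33, 9 and 11 raw reads in shPHF2 replicate 1, shPHF2 replicate 2 and shControl, Aif1 had 3, 2 and 0 in the same libraries, and the remaining 3 of 5 markers, Cx3cr1, Ptprc and Adgre1, had no row. Their summed value was 30.0 and 13.3 in shPHF2 and 11.0 in shControl, and its part in the Igf1 values was not tested.

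Several markers of other cells that express Igf2 in the embryonic brain were near 0, but not all. Of 7 markers of fibroblasts, meninges and pericytes, Lum had no row and 5 had at most 7.23 normalised reads in any library, among them the collagen genes Col1a1, Col1a2 and Col3a1. The pericyte gene Rgs5 was the exception, at 24.2 and 38.6 in shPHF2 and 2.99 in shControl. The summed value of this list, mostly Rgs5 in shPHF2, was 39.2 and 55.5 in shPHF2 and 11.0 in shControl. Of 5 choroid plexus markers, Ttr, the defining one, had 0 and 4.82 normalised reads in shPHF2 and 0 in shControl, and Otx2 had 0 in both shPHF2 libraries and 3.99 in shControl. The summed choroid plexus value was 73.4 and 27.7 in shPHF2 and 32.9 in shControl. It was mostly Aqp1, at 63.4 and 19.3 in shPHF2 and 23.9 in shControl. Of 5 endothelial markers, Pecam1 and Cldn5 had at most 3.99 normalised reads. Kdr had 156 and 77.2 in shPHF2 and 200 in shControl, and Tek had 165 and 95.2 in shPHF2 and 78.7 in shControl. The summed endothelial value, mostly of Kdr and Tek, was 334 and 176 in shPHF2 and 290.1 in shControl. Of 4 astrocyte markers, S100b rose (1094 and 850 normalised reads in shPHF2, 331 in shControl; limma, adjusted p = 0.011), while Gfap, Aqp4 and Aldh1l1 did not pass. Aldh1l1 had 152 and 1009 normalised reads in shPHF2 and 146 in shControl, so replicate 1 was close to shControl. The summed value of these 4 genes was 1263 and 1917 in shPHF2 and 478 in shControl, with Aqp4 at 0 in shControl and Gfap at 10.8 and 20.5 in shPHF2 and 1.99 in shControl. Their part in the IGF axis values was not tested.

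Igf2r, the gene for the receptor that clears IGF2, showed the largest difference among the receptors. It had 15679 normalised reads in shPHF2 replicate 1 and 10739 in replicate 2, against 4983 in shControl. The groups did not overlap, and the shPHF2 mean of 13209 ± 3493 (SD, n = 2) was 2.65-fold the shControl value. The log2 difference was 1.65 in replicate 1 and 1.11 in replicate 2, so replicate 1 was the higher one, opposite to Igf2. The authors' deposited table gives Igf2r a log2 fold change of 1.41. Airn, the antisense RNA that in mouse silences the paternal Igf2r allele, starts inside Igf2r and overlaps its span by 28354 bases, but shares no annotated exon base with it. The strand setting of the counting is not given, so the counts may not be fully separate. Whether unspliced Igf2r reads entered the Airn count was not tested. Airn had 399 and 316 normalised reads in shPHF2 and 182 in shControl, a log2 difference of 0.96 that did not pass the test (limma, adjusted p = 0.078). Its reads came to 2.55% and 2.94% of those of Igf2r in the shPHF2 libraries and 3.66% in shControl. M6pr, the smaller mannose 6-phosphate receptor that does not bind IGF2, had 4353 and 4861 normalised reads in shPHF2 and 4789 in shControl, with a log2 difference of -0.06 (limma, adjusted p = 0.86).

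Igf1r, the gene for the main signalling receptor, was higher in both shPHF2 libraries, but by less than Igf2r. It had 14638 and 12233 normalised reads in shPHF2 and 8148 in shControl, with no overlap between the groups and log2 differences of 0.85 and 0.59. The shPHF2 mean was 1.65-fold the shControl value. Insr, the insulin receptor gene, differed least among the receptors, at 6243 and 5281 normalised reads in shPHF2 and 4554 in shControl. Its log2 difference was 0.45 in replicate 1 and 0.21 in replicate 2, and the median absolute difference between the shPHF2 replicates over all genes tested was also 0.21. The ratio of per-length levels of Igf1r to Insr was 1.92 and 1.90 in shPHF2 and 1.46 in shControl. The per-length ratio of Igf2r to Igf1r was 1.93 and 1.58 in shPHF2 and 1.10 in shControl. All 3 receptor genes were higher in shPHF2 replicate 1 than in replicate 2.

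Igfbp4, the gene for a binding protein that is cut by the protease PAPPA to free its ligand, differed most among the binding proteins. It had 33036 normalised reads in shPHF2 replicate 1 and 48638 in replicate 2, against 18490 in shControl. The groups did not overlap, the shPHF2 mean of 40837 ± 11032 (SD, n = 2) was 2.21-fold the shControl value, and the log2 difference was 0.84 in replicate 1 and 1.40 in replicate 2. Igfbp2, the most abundant binding protein gene of these cells per length, had 40017 and 55380 normalised reads in shPHF2 and 34644 in shControl. Both shPHF2 values were higher, by 0.21 and 0.68 on the log2 scale, and the difference in replicate 1 was close to the median between replicates of 0.21. Igfbp3, whose protein carries IGFs in the blood in a complex with the acid-labile subunit, had 43797 and 55711 normalised reads in shPHF2 and 46756 in shControl. The groups overlapped: replicate 1 was below shControl and replicate 2 above it. Igfbp5, known for its binding to extracellular matrix, had 3170 and 2637 normalised reads in shPHF2 and 2300 in shControl, both higher and by at most 0.46 on the log2 scale. All 3 abundant binding protein genes were higher in replicate 2 than in replicate 1, by 0.35 to 0.56 on the log2 scale, and Igfbp5 was lower there by 0.27.

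By per-length level the 4 binding protein genes summed to 1409 and 1868 in shPHF2 and 1167 in shControl. Igfbp4 made up 17.1% and 18.6% of that sum in shPHF2, against 10.9% in shControl. Igfbp3 made up 32.0% and 30.0% in shPHF2, against 39.0% in shControl, while Igfbp2 stayed between 49.0% and 50.6% in the 3 libraries. The summed per-length level of the binding proteins was 976 and 1064 times that of the ligands Igf1 and Igf2 in shPHF2, against 2961 times in shControl. The share of Igfbp4 and the ratio to the ligands did not overlap between the groups, whose shControl side is a single library. In shControl the ligand level rests on 69 raw reads of Igf2 and 9 of Igf1. The rise of Igf2 was also part of why the set was chosen.

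**Figure D3:**
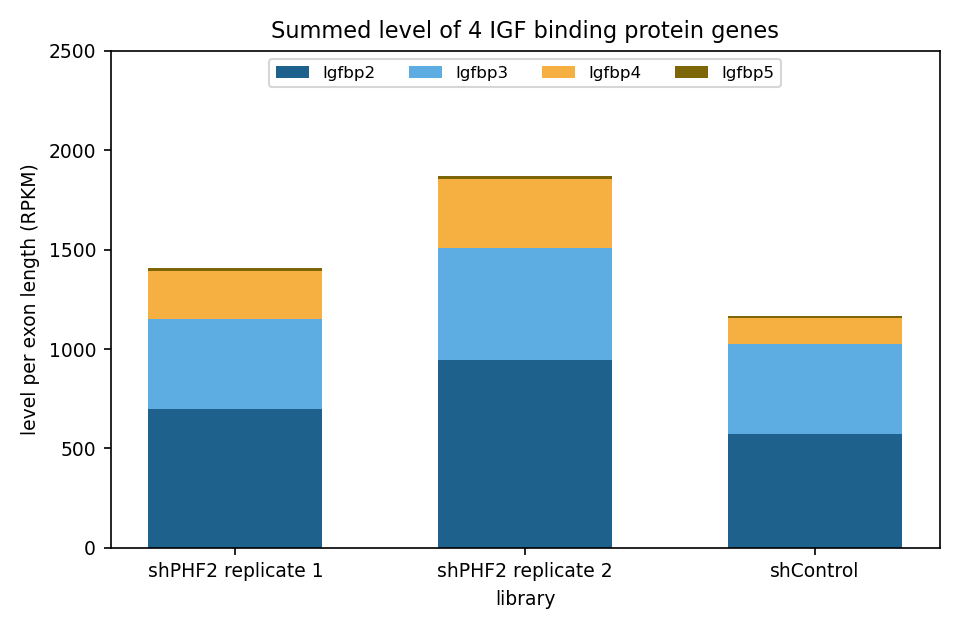
RPKM levels of Igfbp2, Igfbp3, Igfbp4 and Igfbp5, stacked, in each library (x axis: shPHF2 replicate 1, shPHF2 replicate 2, shControl). The stacks sum to 1409, 1868 and 1167, and the Igfbp4 segment is 17.1%, 18.6% and 10.9% of them.

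Igf2bp1 encodes a fetal protein that binds Igf2 and other transcripts. It had 1.67 and 16.9 normalised reads in the shPHF2 libraries and 5.98 in shControl, from 2, 14 and 6 reads. The groups overlapped, and the ratio of reads with shPHF2 pooled, 1.32, had a 95% exact interval of 0.490 to 4.11 for counting error only. No difference was detectable at this depth. Its relatives were far better covered: Igf2bp2 had 1150 and 1585 normalised reads in shPHF2 and 1141 in shControl, and Igf2bp3 had 2198 and 2661 in shPHF2 and 1873 in shControl. Neither passed the test, with log2 differences of 0.24 and 0.37 (limma, adjusted p = 0.53 and 0.24). Hmga2, a chromatin protein gene that promotes Igf2bp2 expression in mouse neural progenitors, had 857 and 815 normalised reads in shPHF2 and 774 in shControl, and did not pass either (limma, adjusted p = 0.77).

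The other genes of the pathway were read from a list of 67 chosen for their known roles, with earlier results of these data known. Of these, 57 were tested, 8 rose and 4 fell (limma, adjusted p under 0.05), 7 had a row but a mean under 10, and Ins1, Ins2 and Lin28a had no row. The 12 called are 21.1% of the 57, against 14.3% of all genes tested. The share that rose was 14.0%, against 7.22% of all genes tested, and the share that fell was 7.02%, against 7.11%. The median log2 difference was 0.11, against -0.01 for all genes tested. Because of how the list was made, these shares are a description. The 7 under the minimum mean were Insrr, Igfbp1, Igfbp6, Pappa2, Irs3, Lin28b and Dlk1.

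Among adaptors, 3 of 13 tested rose and none fell, against 7.22% and 7.11% of all genes tested. Irs2, a docking protein of the activated receptors, had 4649 and 5545 normalised reads in shPHF2 and 2561 in shControl, a log2 difference of 0.99 ± 0.19 (SE; limma, adjusted p = 0.017). Gab1, another docking protein, had 7489 and 7684 in shPHF2 and 3539 in shControl (log2 difference 1.10; limma, adjusted p = 0.0096). Grb14, an adaptor that inhibits the insulin receptor, had 1668 and 1136 in shPHF2 and 497 in shControl (log2 difference 1.47; limma, adjusted p = 0.014). Irs1 did not pass, at 8252 and 9297 in shPHF2 and 7306 in shControl. Grb10, an imprinted relative of Grb14, had 830 and 2446 in shPHF2 and 729 in shControl, and its high value in replicate 2 did not make a call (limma, adjusted p = 0.25).

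Of the 25 genes from PI3-kinase to mTOR, 3 rose, 2 fell and 20 did not pass. Of all genes tested, 7.22% rose and 7.11% fell. Pik3r3, a regulatory subunit of PI3-kinase, had 9568 and 8774 normalised reads in shPHF2 and 4434 in shControl, a log2 difference of 1.05 ± 0.18 (SE; limma, adjusted p = 0.012). The transcription factor genes Foxo1 and Foxo4, whose proteins AKT keeps out of the nucleus, rose by 0.82 and 0.81 on the log2 scale (limma, adjusted p = 0.047 and 0.044). Rps6kb1, which encodes the S6 kinase downstream of mTOR, had 2836 and 2622 in shPHF2 and 4332 in shControl, a log2 difference of -0.67 (limma, adjusted p = 0.042). The Foxo1 and Foxo4 calls were lost with DESeq2 (adjusted p = 0.065 and 0.052), and the Rps6kb1 call with scaling to gene reads (limma, adjusted p = 0.067). Akt1, Akt2 and Mtor had log2 differences between -0.11 and 0.07 and did not pass.

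Both proprotein convertase genes on the list rose. Pcsk6 had 3849 and 2515 normalised reads in shPHF2 and 1134 in shControl (log2 difference 1.45; limma, adjusted p = 0.013), and Furin, which is able to cut many growth factor precursors and receptors, had 905 and 793 in shPHF2 and 466 in shControl (log2 difference 0.86; limma, adjusted p = 0.044). The Furin call was lost with DESeq2 (adjusted p = 0.053). None of the 7 tested genes for other binding proteins and their regulators passed. The protease gene Pappa, which acts on IGFBP4, had 15 and 9 raw reads in shPHF2 and 7 in shControl. Stc2, an inhibitor of PAPPA, had 569 and 230 normalised reads in shPHF2 and 663 in shControl (limma, adjusted p = 0.25).

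Of 5 tested imprinted partners of the axis, 2 fell and none rose, while Airn, H19 and Cdkn1c did not pass. Of all genes tested, 7.11% fell and 7.22% rose, and so short a list, made with earlier results known, is a description only. Direction was mixed: Airn and Cdkn1c lay above shControl in both shPHF2 libraries, as did the imprinted genes Igf2, Igf2r and Grb10. Plagl1, a zinc-finger factor known to activate Igf2 and other imprinted genes in mouse, fell: it had 86.7 and 106 normalised reads in shPHF2 and 315 in shControl (log2 difference -1.71; limma, adjusted p = 0.027). Mest, another paternally expressed gene, fell to 34992 and 25178 in shPHF2, against 75292 in shControl (log2 difference -1.34; limma, adjusted p = 0.023). H19, the noncoding gene beside Igf2 that shares its enhancers and is expressed from the maternal allele, had 5.84 and 20.5 normalised reads in shPHF2 and 18.9 in shControl, values that overlap at a very low level. Cdkn1c, a growth-limiting CDK inhibitor gene, had 39.2 and 73.5 in shPHF2 and 27.9 in shControl (limma, adjusted p = 0.37). The 12 calls rest on few degrees of freedom, and 0 of them were made by limma without the mean-variance trend or with no filter on low values. In those fits 17 and 17 of the listed genes had an unadjusted p under 0.05, and edgeR called all 12.

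**Figure D4:**
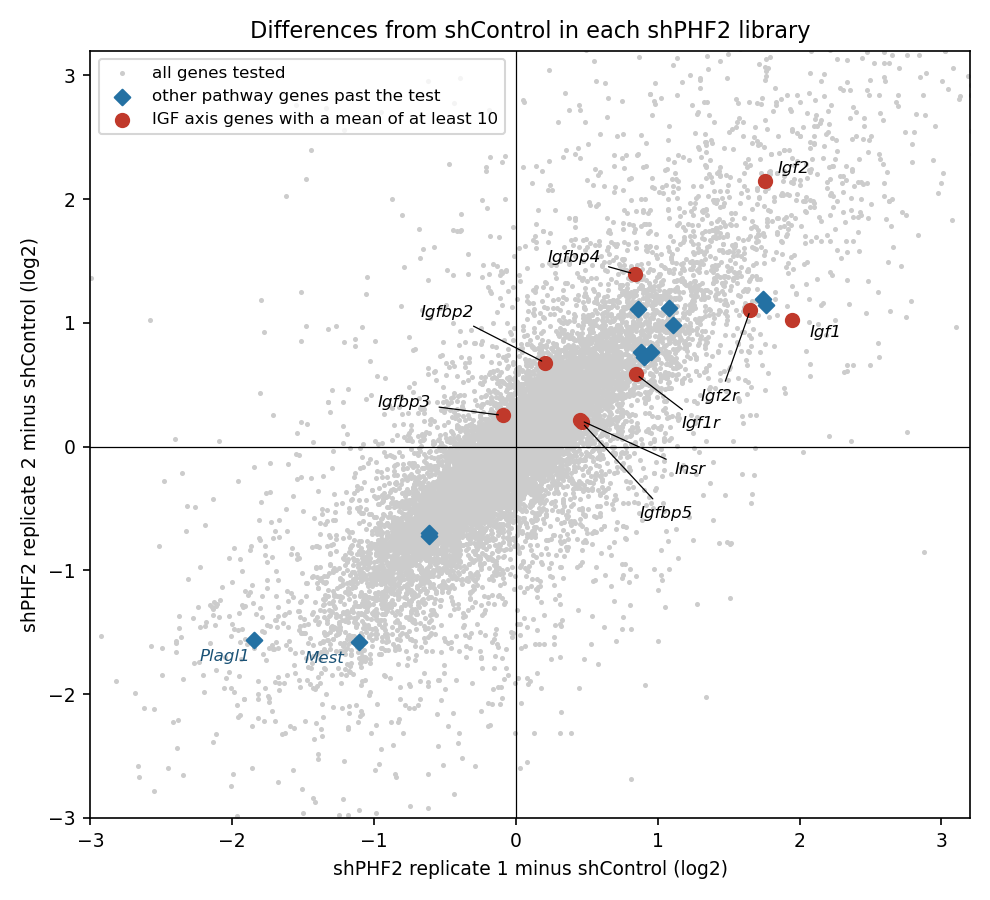
Difference of shPHF2 replicate 1 (x axis) and shPHF2 replicate 2 (y axis) from the shared shControl library, in log2(normalised reads + 1), for the 14148 genes tested (grey; 212 lie outside the axes), 9 IGF axis genes (red, named) and the 12 other pathway genes past the test (blue diamonds). Igf2 lies at 1.75 and 2.14 and Igf2r at 1.65 and 1.11, Plagl1 and Mest lie at the lower left, and both axes share one control, so points near the diagonal are not independent evidence.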

How the data were processed

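Stranded libraries of ribosomal RNA-depleted total RNA were made from the cultured cells, per the labels' protocols. The submitters' processing notes name HISAT2, HTSeq and DESeq2, with mm10 as the build. Versions, annotation and the strand setting: not given in the sources used here. The deposited signal of each library is a read count over a size factor, as the header and values show: all values were whole multiples of one step (100% within 0.001), which gave back the reads and size factors of 1.20 (shPHF2 replicate 1), 0.829 (shPHF2 replicate 2) and 1.00 (shControl). The deposited table also holds the authors' log2 fold changes, their standard errors, a Wald score, p-values and adjusted p-values. The 4 rows that name no gene were left out; reads on genes made up 38.5%, 38.5% and 38.6% of the table's reads in the same library order. No library column was left unused (0).

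Log2(value + 1) was fitted with limma 3.58.1 (mean-variance trend, R 4.3.3) for genes with a mean of at least 10, with p-values adjusted by Benjamini-Hochberg over all of them. The fit has 1 residual degree of freedom, from the shPHF2 libraries, and 6.94 prior ones; shControl is assumed to vary like them. The scripts were tested on simulated data. edgeR 4.0.16 and DESeq2 1.42.0 were run on the recovered reads. Exon lengths and positions come from GENCODE M21 (93.3% of genes matched), which need not be the authors' annotation, and promoters from RefSeq. Named were all 10 members, the listed pathway genes past the test (1 of them is not reported here), genes near Igf2 and Igf2r, and the 3 genes nearest to Igf2 and to Igf2r in their differences. Other genes are named as background, after their values were seen. The members and lists were chosen with earlier results of these data known.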

Additional observations from a re-analysis of the deposited data

How the results depend on the processing

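The member values moved little with the processing: under 6 alternatives for each of 10 genes, 56 of 60 log2 differences moved by less than the SD between the shPHF2 libraries, which with 2 libraries holds by construction when either is left out and the sign stays. The other 4 changed sign, all in genes whose groups overlap. Igfbp3, at 0.08 with both libraries, was at -0.094 without shPHF2 replicate 2 and at 0.25 without replicate 1. Igf2bp1, at -0.02, was at 0.14 with a pseudocount of 5, at 0.036 with scaling to gene reads, at 1.36 without shPHF2 replicate 1 and at -1.39 without replicate 2. Leaving out a library leaves no residual degree of freedom, so no counts of calls were had that way.

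Over all genes limma called 2027, and 0 with no filter on low values (3893 at an unadjusted p under 0.05) or without the trend (3300). Of the pathway genes, the 8 higher and 4 lower calls became 0 and 0 in those 2 fits. With scaling to gene reads 2 were lower, and with DESeq2 5 were higher. The causes were not tested. The 12 called genes had the same sign in all 9 alternatives. These reuse the same 3 libraries and barely change the log2 differences, so the shared sign carries no further weight. Counting error limits Igf1 and Igf2bp1. No paired analysis was possible because shControl has 1 library and shares at most 1 replicate number with shPHF2.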

Other observations

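The genes whose pair of differences from shControl lay nearest to that of Igf2, among 11482 others with a mean of at least 100 normalised reads, were Dtx3l, Sdr42e1 and Tm4sf1, with Euclidean distances of 0.02, 0.07 and 0.08 on the log2 scale over the 3 libraries. Dtx3l, a ubiquitin ligase gene, had 539 and 714 normalised reads in shPHF2 and 158 in shControl. Nearest to Igf2r were Tcea3, the thyroid hormone receptor gene Thrb and the focal adhesion gene Lpp, with distances of 0.03, 0.05 and 0.05. Thrb had 756 and 543 normalised reads in shPHF2 and 247 in shControl. Within a distance of 0.25 there were 28 genes for Igf2 and 38 for Igf2r.

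Around Igf2, GENCODE M21 lists the protein-coding model Gm49394, on the same strand, which shares 3596 exon bases with Igf2, and the antisense gene Igf2os, which shares 98. Neither has a row in the table used here. Ins2, the other neighbour within 50 kb that codes for a protein, has none either.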
